A study of Mus musculus with 15 samples.

Results

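Endothelial cells of the mouse liver that carried the surface protein CD200 were compared by whether they also carried CD157. The comparison rested on 6 of the 15 arrays of the series, 3 of cells sorted as CD157+CD200+ and 3 of cells sorted as CD157-CD200+, chosen by their titles. A further 3 arrays of CD157-CD200- endothelial cells entered the fit to help estimate the spread, and their levels are given beside the others where they place a gene. The remaining 6 arrays hold EC-SP and EC-MP cells, which are read here as the side and main populations of liver endothelium, a reading the labels do not spell out. The labels give an age of 8 weeks for EC-SP and EC-MP and none for the 3 CD157 and CD200 subsets. They name no strain, transgene or treatment for any group, so as far as the labels go the 3 subsets differ in the surface proteins used to sort them and in nothing else. RNA was taken up on spin columns, amplified with a whole-transcriptome kit for small samples, labelled with the dye Cy3 and hybridised to 1-colour Agilent arrays. The design text calls the samples independent but does not say whether they came from separate animals, so the p-values speak to the spread among these samples and no further.

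CD157, encoded by Bst1, is a membrane-anchored ectoenzyme related to CD38 that breaks down NAD outside the cell. It has been described as a surface marker of a small group of resident endothelial cells in large vessels with stem cell properties, and the title of the series uses it in that sense. CD200 is a membrane glycoprotein that restrains myeloid cells through its receptor and is carried by many endothelial cells outside the sinusoids. The liver holds several kinds of endothelium: fenestrated sinusoidal cells, which clear particles from portal blood with scavenger receptors, and the continuous lining of portal vessels, hepatic arteries and central veins. Cells of a side population stain weakly with a DNA-binding dye because ABC transporters pump it out, a property often used to enrich stem-like cells.

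The 6 arrays were of like quality. The share of spots well above background ran from 60.2% to 66.7%, the 75th percentile of the signal from 160.5 to 198.4 intensity units, and no spot was saturated. Levels below are on a log2 scale on which 0 is the brightness of the array's 75th percentile, and they are set side by side only within 1 gene. Per the file headers each of 3 slides held 1 array of each subset, and slide, scan and replicate number coincide. Across features, r was 0.973 to 0.983 for arrays of different subsets on 1 slide and 0.970 to 0.981 for arrays of 1 subset on different slides. The same-numbered arrays were treated as pairs, with replicate number as a block in the fit.

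CD157 was accompanied by more genes at higher than at lower levels. Of 23701 features tested, 14363 of them named genes, 732 (3.09%) differed between the subsets at a Benjamini-Hochberg adjusted p under 0.05 from limma; 481 (2.03%) were higher in CD157+CD200+ cells and 251 (1.06%) were lower. These shares over all features are the background for the counts given per gene list below. The calls hold 406 named genes that were higher and 189 that were lower. The median difference was 1.12 on the log2 scale among the higher features and -0.91 among the lower ones, against -0.01 over all features. A log2 difference over 1 was reached by 273 of the higher features, and one under -1 by 103 of the lower. All 732 moved the same way in the 3 pairs, and in 657 the arrays of the subsets did not overlap, while the subsets failed to overlap in 14.7% of all features tested. The calls were made on these same pairs and arrays, so neither count is separate support for them. In the plot of difference against level the calls spread over the whole range of signal.

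**Figure D1:**
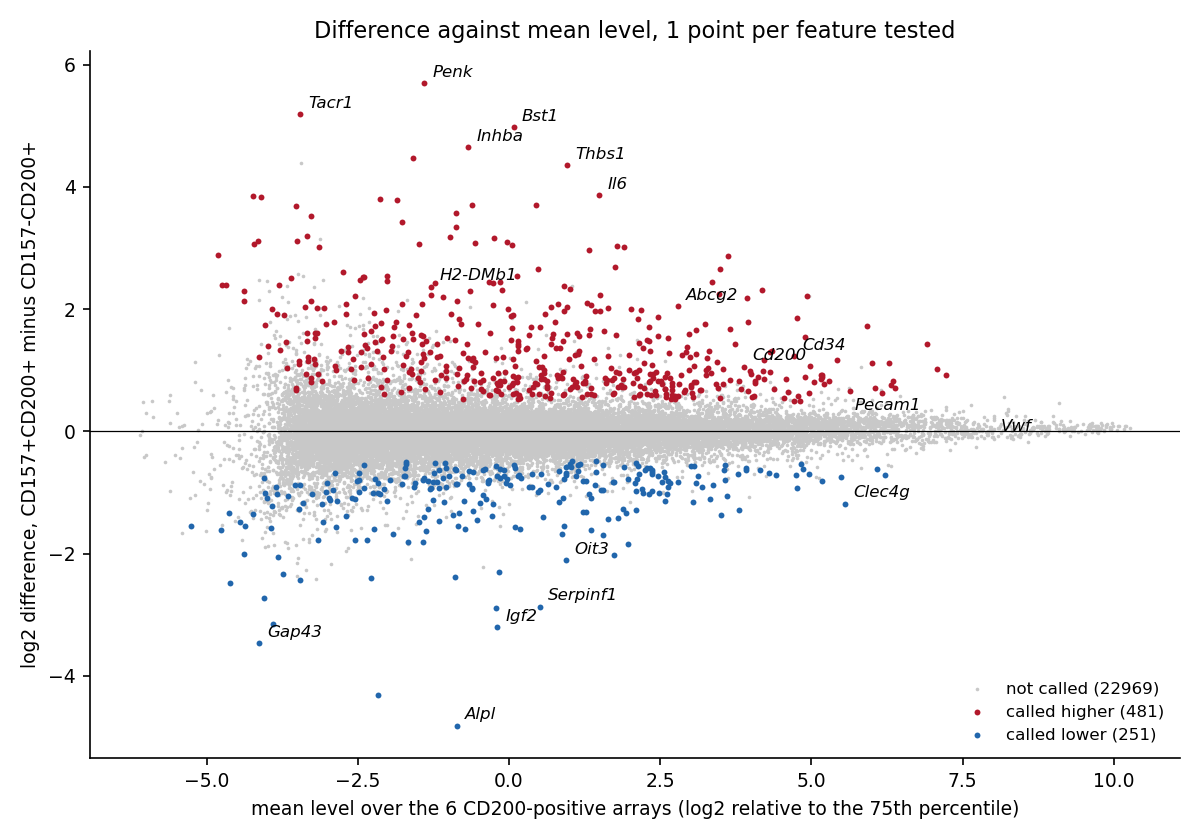
Each point is 1 of 23701 features; the x axis is the mean level over the 6 CD200-positive arrays (log2 of the signal relative to the array's 75th percentile) and the y axis the fitted log2 difference, CD157+CD200+ minus CD157-CD200+. The 481 features called higher (red) reach 5.70 for Penk, 1 of whose CD157-CD200+ arrays was not well above background, the 251 called lower (blue) reach -4.82 for Alpl, and Vwf and Pecam1 lie among the features not called (grey).

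How many features were called depended on the pairing and on single arrays. Without the replicate block 250 features were called, 247 of them among the 732. With 1 array left out the count was 145 without CD157+CD200+ replicate 1, 172 without CD157+CD200+ replicate 2, 300 without CD157+CD200+ replicate 3, 202 without CD157-CD200+ replicate 1, 170 without CD157-CD200+ replicate 2 and 224 without CD157-CD200+ replicate 3. Of the 732 features, 117 stayed called in all 6 of these fits and 393 in none of them. Of the 101 called genes chosen for naming, 31 kept their call in all 6 of these fits and 55 kept it without the block, and for most of the others the loss is given by gene or by list.

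The sort itself was visible in the transcripts. Bst1 lay at 2.45, 2.48 and 2.77 on the CD157+CD200+ arrays and -2.65, -2.14 and -2.45 on the CD157-CD200+ arrays. The subsets did not overlap, and the difference of 4.98 ± 0.18 on the log2 scale corresponds to 31.5-fold (adjusted p = 0.000831). Bst1 was lower still on the CD157-CD200- arrays, at -3.62, -3.16 and -2.73. Cd200, whose protein both subsets were sorted for, was nevertheless 1.06 ± 0.10 higher in CD157+CD200+ cells (adjusted p = 0.00623), with levels of 4.49, 4.46 and 4.32 on the CD157+CD200+ arrays and 3.41, 3.29 and 3.40 on the CD157-CD200+ arrays. Its call held in 5 of the 6 fits with 1 array left out, and narrowly failed without CD157-CD200+ replicate 2. On the CD157-CD200- arrays Cd200 lay at -4.27, -4.43 and -4.56, where no array measured it well above background. The endothelial genes Pecam1 and Cdh5, which encode the junction proteins CD31 and VE-cadherin, were not called, with differences of 0.24 ± 0.09 (adjusted p = 0.248) and -0.01 ± 0.12 (adjusted p = 0.969). Ptprc, which encodes the pan-leukocyte protein CD45, had a difference of 0.00 ± 0.10 (adjusted p = 0.996). Of 18 endothelial and sort genes tested, 3 were higher (Bst1, Cd200 and Fli1, an ETS transcription factor, at 0.69, adjusted p = 0.0191) and 1 was lower (Eng, a TGF-beta co-receptor, at -0.61, adjusted p = 0.0233). Fli1 and Eng lost their calls without the block, where their adjusted p was 0.0959 and 0.816, and in each fit that left out 1 array.

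The genes with the largest positive differences were led by a neuropeptide precursor, peptide receptors and secreted factors. Penk, the precursor of the opioid enkephalins, lay at 1.59, 1.79 and 0.95 on the CD157+CD200+ arrays and -3.19, -6.16 and -3.44 on the CD157-CD200+ arrays. The CD157-CD200+ arrays varied widely, with replicate 2 far below the others, and none reached the CD157+CD200+ arrays. Penk was well above background on 2 of these 3 arrays, so the fitted difference of 5.70 ± 0.74 (adjusted p = 0.0152) rests in part on an unmeasured level. The 3 pairs differed by 4.78, 7.95 and 4.38. Without the filter on dim probes its adjusted p was 0.0557. The loss was shared: of 100 called genes chosen for naming and tested in that setting, 55 kept their call and 45 lost it. A normexp background correction, which adds an offset of 50 to each signal, brought 31 of the 101 called genes chosen for naming nearer to 0 by over 1.5 times, and 30 of these kept their calls, the exception being Fgb. Penk was then at 2.78, Tacr1 at 1.40, Inhba at 2.93, Itih5 at 2.19, Bdkrb2 at 0.71, Alpl at -2.58, Tmem178 at -1.70, Igf2 at -2.13, H2-DMb1 at 1.23 and Abcb1b at 0.58. Tacr1, the receptor for the neuropeptide substance P, lay at -1.80, -0.47 and -0.29 on the CD157+CD200+ arrays and was not well above background on any CD157-CD200+ array. In the main setting it was at least 9.07-fold higher, a bound set by the dimmest signal of any probe still called above background. The adjusted p of 0.00225 is for the fitted difference. Bdkrb2, the bradykinin B2 receptor, was at least 3.63-fold higher on the same reckoning (adjusted p = 0.00388 for the fitted difference). These bounds do not cover the normexp values above, which are smaller for both receptors. The 3 CD157+CD200+ arrays put Bdkrb2 at -2.12, -1.61 and -2.81. Both receptors entered the test only through the CD157+CD200+ arrays, the subset that measured them well above background. Of the 481 features called higher, 25 were not well above background on any CD157-CD200+ array, both receptors among them.

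Among secreted factors, Inhba, the subunit of activin A, lay at 1.05, 1.54 and 2.38 on the CD157+CD200+ arrays and -3.14, -3.87 and -1.98 on the CD157-CD200+ arrays. Replicate 3 was the highest array in both subsets, which did not overlap, and the difference was 4.65 ± 0.24 (adjusted p = 0.00134). Thbs1, thrombospondin 1, a matrix-associated protein that restrains vessel growth, lay at 3.09, 3.30 and 3.05 on the CD157+CD200+ arrays and -1.32, -1.66 and -0.66 on the CD157-CD200+ arrays. Its subsets were well apart, by 4.36 ± 0.34 (adjusted p = 0.00343). Itih5, a secreted protein of the inter-alpha-trypsin inhibitor family that binds hyaluronan, differed by 4.47 ± 0.28 (adjusted p = 0.00209), with CD157+CD200+ arrays that agreed closely, at 0.58, 0.67 and 0.69. In CD157-CD200+ cells 1 array of 3 did not measure Itih5 above background. Ebf3, a transcription factor of the early B-cell factor family, differed by 3.70 ± 0.26 (adjusted p = 0.00264).

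Beside Bst1, the group held Rasal1, a GTPase-activating protein for Ras; Cmah, which makes the sialic acid Neu5Gc; and Maob, which oxidises monoamines. For Rasal1, which no CD157-CD200+ array measured well above background, the bound was 3.34-fold higher (adjusted p = 0.00329). Cmah was well above background on 1 of the 3 CD157-CD200+ arrays and Maob on 2 of 3, so their fitted differences, 3.81 ± 0.46 (adjusted p = 0.012) and 3.79 ± 0.43 (adjusted p = 0.00993), rest in part on unmeasured levels. All 12 genes of the group, Bst1 and Il6 included, kept their call without the block, and 9 kept it whichever array was left out. The others, Penk, Cmah and Maob, were called in 4, 3 and 3 of the 6 fits with 1 array left out. Their highest adjusted p were 0.0926, 0.0899 and 0.0773, each without CD157+CD200+ replicate 2.

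**Figure D2:**
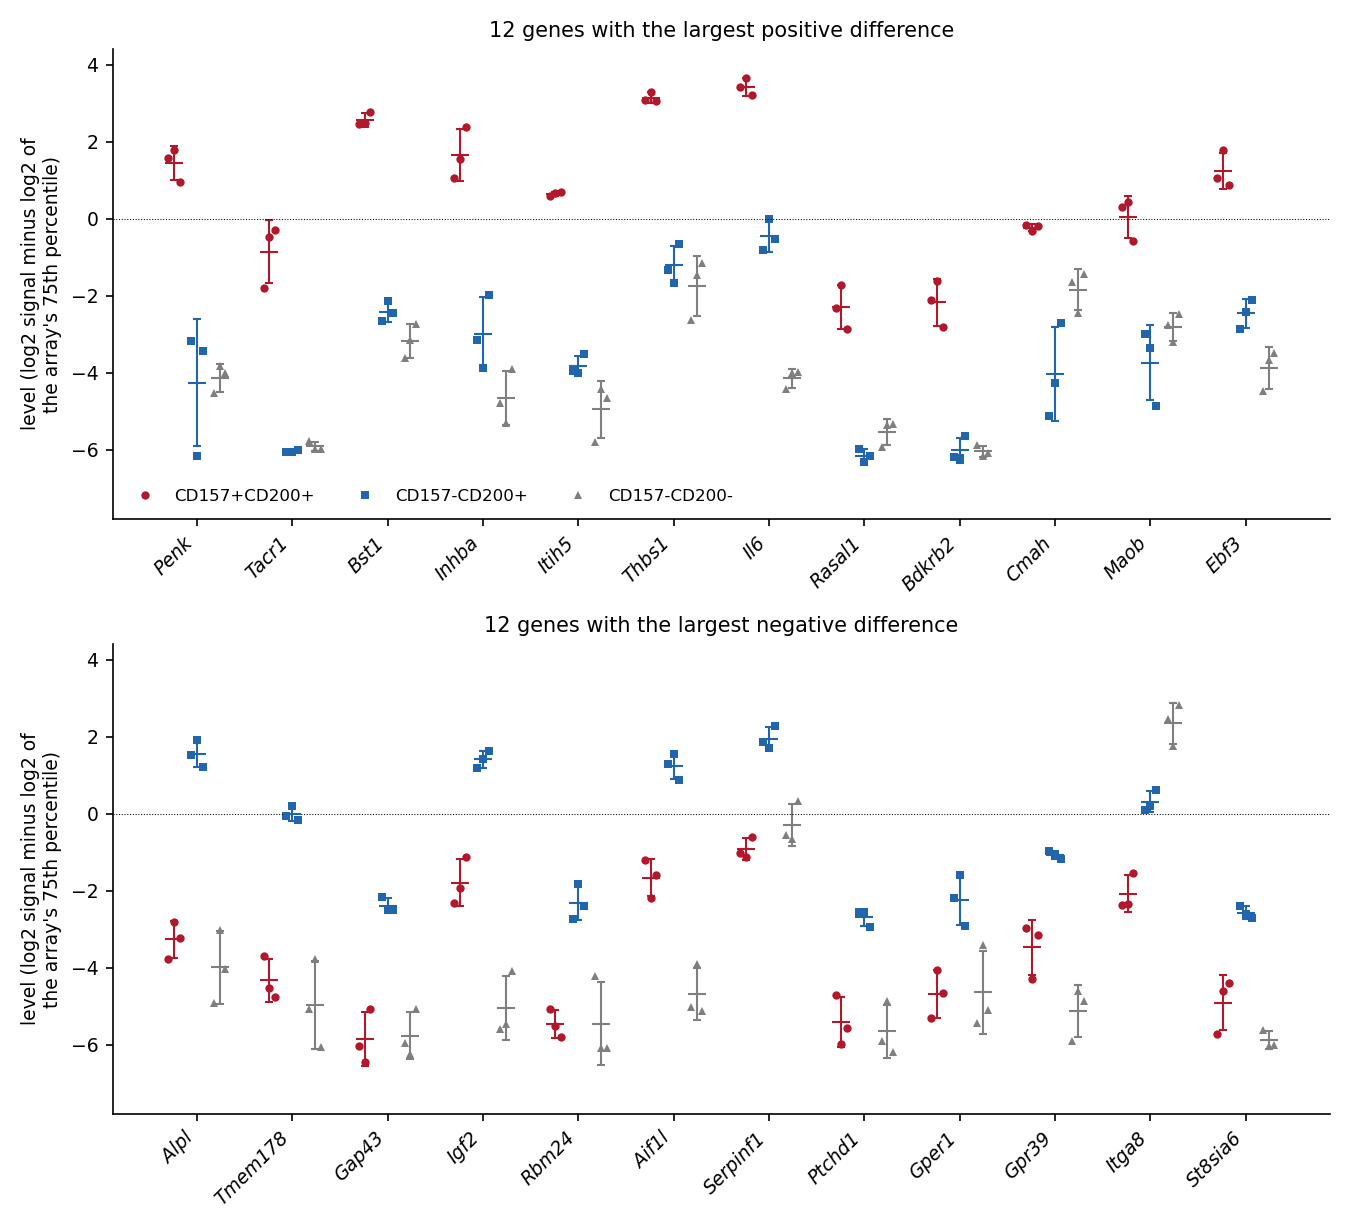
Levels (log2 of the signal relative to the array's 75th percentile) of the 12 genes with the largest positive and the 12 with the largest negative difference; each symbol is 1 array, and bars are the mean and SD of 3 arrays. In none of the 24 genes do the CD157+CD200+ arrays (red circles) overlap the CD157-CD200+ arrays (blue squares). The genes were chosen for large differences on these same arrays, so the lack of overlap follows largely from the choice. Over all features tested, 14.7% did not overlap. The CD157-CD200- arrays (grey triangles) are shown for orientation.

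The largest negative differences were found in a phosphatase, a growth factor, secreted proteins and receptors, several of them highest in the CD157-CD200+ subset. Alpl, tissue-nonspecific alkaline phosphatase, lay at -3.77, -2.81 and -3.23 on the CD157+CD200+ arrays and 1.52, 1.91 and 1.22 on the CD157-CD200+ arrays. The difference of -4.82 ± 0.28 (adjusted p = 0.00162) was the largest negative one, although 1 CD157+CD200+ array did not measure Alpl above background. The CD157-CD200- arrays were low as well, at -4.91, -3.03 and -4.04, and 1 of them measured it above background. Tmem178, a transmembrane protein, lay at -0.07, 0.20 and -0.16 on the CD157-CD200+ arrays and was not well above background on any CD157+CD200+ array. In the main setting it was at least 15.8-fold higher in the CD157-CD200+ cells (adjusted p = 0.00705), the largest bound among the 12. This bound does not cover the normexp difference of Tmem178 given above, which is smaller. Igf2, an imprinted insulin-like growth factor, lay at -2.33, -1.93 and -1.13 on the CD157+CD200+ arrays and 1.18, 1.40 and 1.63 on the CD157-CD200+ arrays. Its arrays did not overlap, the difference was -3.20 ± 0.23 (adjusted p = 0.00265), and on the CD157-CD200- arrays Igf2 was not well above background.

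Serpinf1, the secreted pigment epithelium-derived factor, which restrains vessel growth, lay at -1.03, -1.13 and -0.61 on the CD157+CD200+ arrays and 1.86, 1.70 and 2.27 on the CD157-CD200+ arrays. The 3 pairs agreed closely, with a difference of -2.87 ± 0.13 (adjusted p = 0.000897). Itga8, an integrin alpha subunit, stood apart in that it was highest without either protein. It lay at -2.36, -2.34 and -1.53 on the CD157+CD200+ arrays and 0.09, 0.20 and 0.61 on the CD157-CD200+ arrays, a difference of -2.38 ± 0.18 (adjusted p = 0.00322), and the CD157-CD200- arrays were higher than either, at 2.44, 1.76 and 2.81. Aif1l, an actin-binding protein, differed by -2.89 ± 0.38 (adjusted p = 0.0155).

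For Gap43, a growth-cone protein, CD157+CD200+ cells were at least 3.08-fold lower (adjusted p = 0.00381). This bound and those that follow hold for the main setting only. The bounds were 3.29-fold lower for Gper1, a G protein-coupled oestrogen receptor (adjusted p = 0.0149), and 2.51-fold lower for Ptchd1, a patched-domain protein (adjusted p = 0.0211). Rbm24, an RNA-binding protein, and St8sia6, a sialyltransferase, were at least 3.24-fold and 2.72-fold lower, with adjusted p of 0.0249 and 0.0234. Gpr39, a zinc-sensing receptor, had a difference of -2.40 ± 0.45 (adjusted p = 0.0462), and 1 CD157+CD200+ array did not measure it above background. In all, 6 of the 12 were not well above background on any CD157+CD200+ array. Gper1 alone lost its call without the block (adjusted p = 0.0906), and 6 of the 12 kept theirs whichever array was left out. Of the 6 fits with 1 array left out, Ptchd1 and Gpr39 were called in 0, Rbm24 in 1, Aif1l and St8sia6 in 2 and Gper1 in 3. The highest adjusted p were 0.128 for Rbm24 and 0.0967 for Gper1, both without CD157+CD200+ replicate 2. Without CD157-CD200+ replicate 2 they were 0.0876 for Aif1l and 0.175 for Gpr39. Ptchd1 reached 0.103 without CD157-CD200+ replicate 3, and St8sia6 reached 0.109 without CD157-CD200+ replicate 1.

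Dye efflux transporters were higher in CD157+CD200+ cells in 6 of 8 cases, with a median difference of 1.08 over the 8. Some of these ATP-driven pumps export the dye whose loss defines a side population, and dye export by each was not measured here. Abcg2, the pump most closely tied to that phenotype, lay at 4.04, 3.91 and 3.50 on the CD157+CD200+ arrays and 2.02, 1.60 and 1.68 on the CD157-CD200+ arrays. The subsets did not overlap, and the difference of 2.05 ± 0.12, or 4.15-fold, had an adjusted p of 0.00162. Abcb1a, a P-glycoprotein gene, lay at 3.18, 3.29 and 3.06 on the CD157+CD200+ arrays and 0.97, 1.42 and 1.19 on the CD157-CD200+ arrays. It differed by 1.98 ± 0.21 (adjusted p = 0.00739), and its close paralogue Abcb1b, whose probe may also bind Abcb1a, by 1.59 ± 0.26 (adjusted p = 0.032). On the CD157-CD200- arrays the means of Abcg2 and Abcb1a were lower again, at 0.56 and -2.46, and Abcb1b was not well above background.

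Abcb4, the phospholipid transporter, differed by 1.40 ± 0.14 (adjusted p = 0.00734). The organic anion pumps Abcc3 and Abcc4 differed less, by 0.76 ± 0.13 (adjusted p = 0.0343) and 0.60 ± 0.10 (adjusted p = 0.0313), and were highest on the CD157-CD200- arrays, at means of 1.71 and 2.60. Abcc1 and Abcc5 were not called, at -0.01 ± 0.10 (adjusted p = 0.964) and 0.01 ± 0.11 (adjusted p = 0.985), and their differences changed sign under other settings. Without the block 4 of the 6 calls held, and Abcc3 and Abcc4 had adjusted p of 0.08 and 0.244. Between 1 and 3 calls held with 1 array left out, and Abcg2 was called in every such fit.

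**Figure D3:**
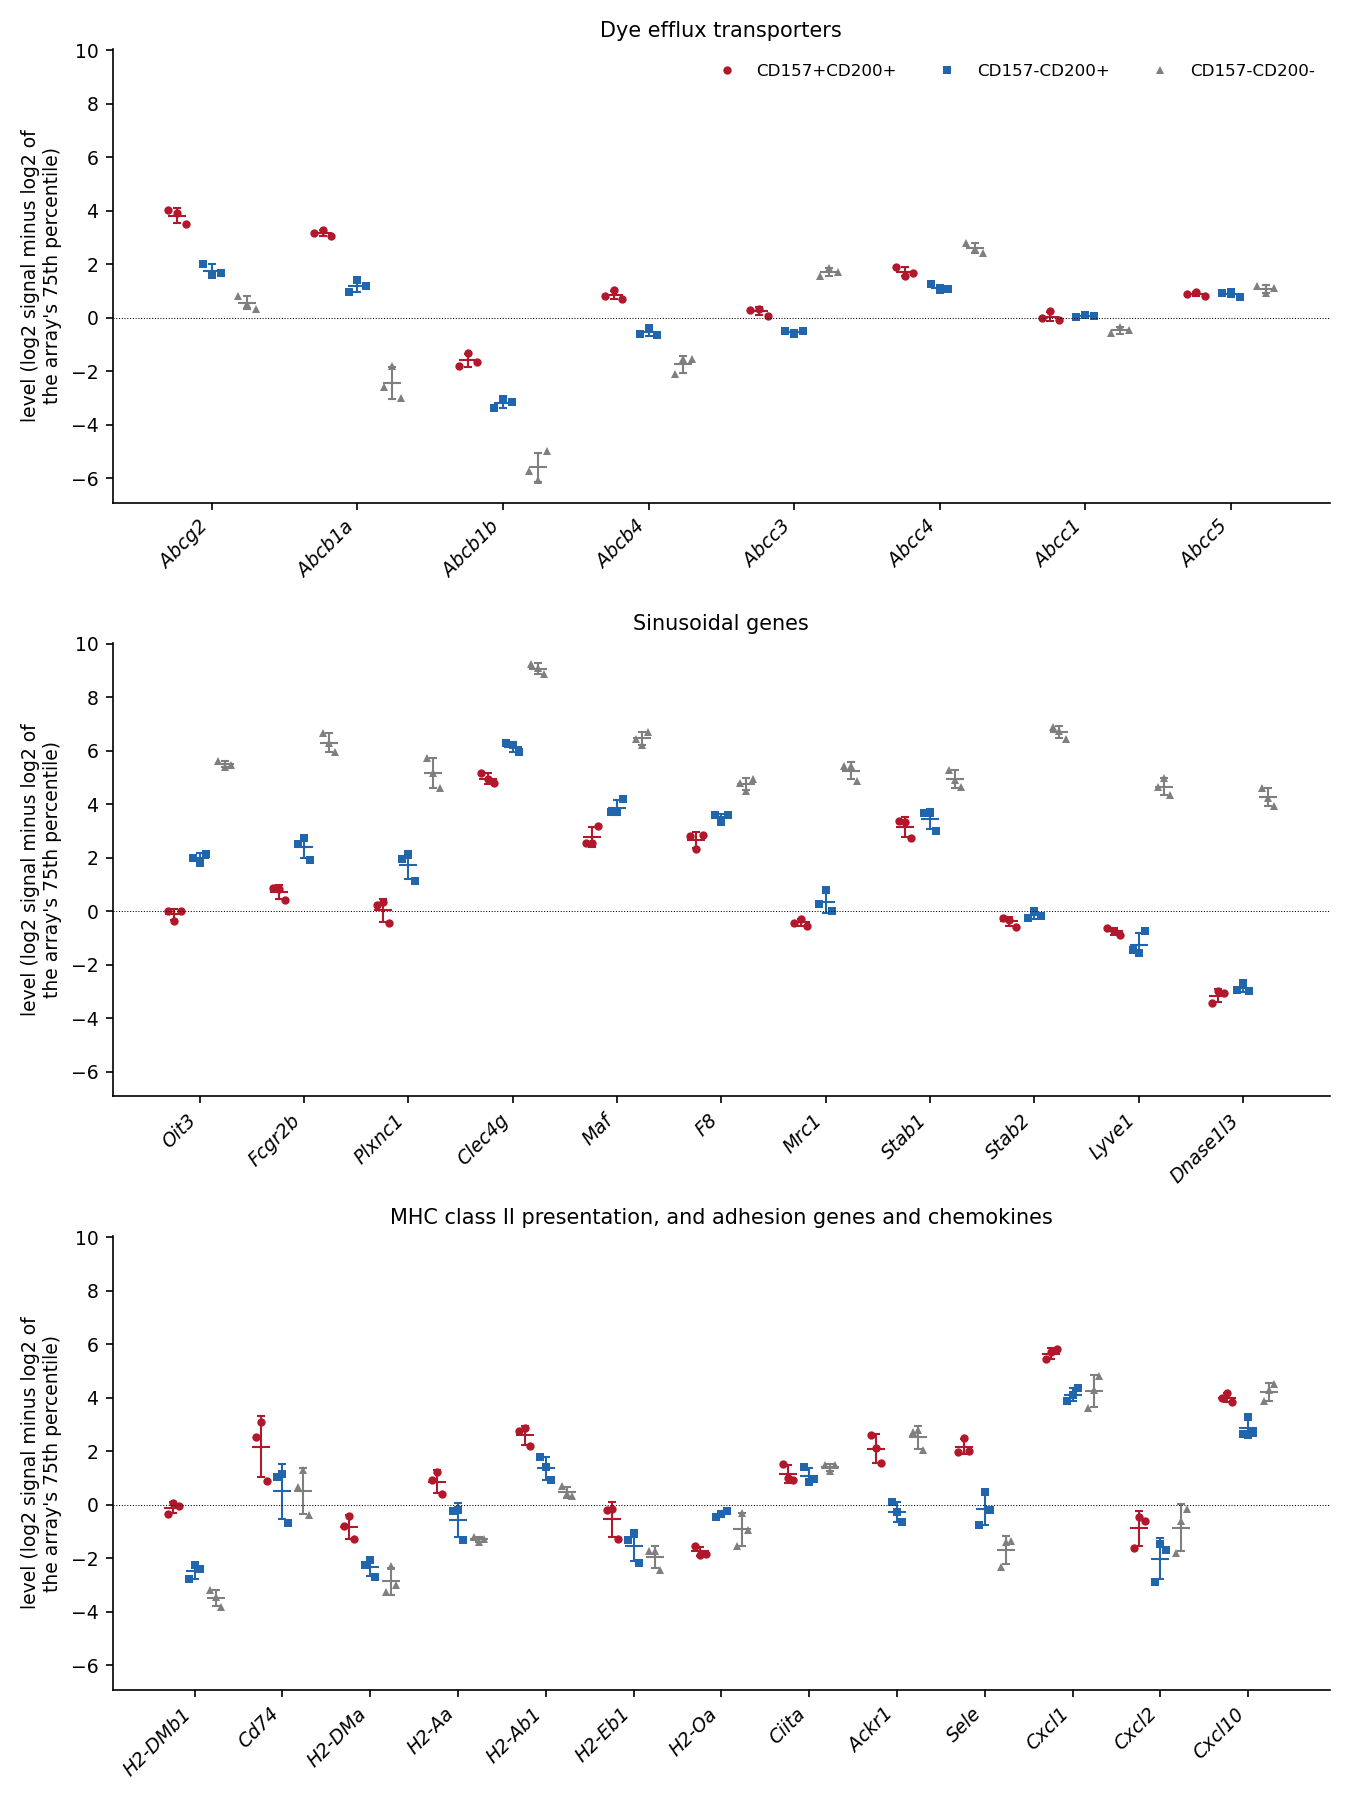
Levels (log2 of the signal relative to the array's 75th percentile) of efflux transporters, sinusoidal genes, and antigen presentation, adhesion and chemokine genes; each symbol is 1 array, bars are mean and SD of 3 arrays. Abcg2, Abcb1a and Abcb1b step down from CD157+CD200+ (red circles) to CD157-CD200+ (blue squares) to CD157-CD200- (grey triangles, where Abcb1b is not well above background), while Oit3, Fcgr2b, Plxnc1 and Clec4g step up.

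Il6 had the largest difference in the interleukin 6 family. Interleukin 6 signals through its own receptor and the shared subunit gp130, encoded by Il6st. Il6 lay at 3.41, 3.65 and 3.20 on the CD157+CD200+ arrays and -0.81, 0.00 and -0.53 on the CD157-CD200+ arrays. The subsets did not overlap, and the difference of 3.86 ± 0.17 corresponds to 14.6-fold (adjusted p = 0.000831). On the CD157-CD200- arrays Il6 lay at -4.42, -4.02 and -3.98 and was well above background on 1 of 3. The receptor genes did not follow: Il6ra differed by -0.44 ± 0.11 (adjusted p = 0.104) and Il6st by -0.26 ± 0.12 (adjusted p = 0.324), neither of them called. Socs3, a feedback inhibitor of the pathway, differed by 0.48 ± 0.17 with overlapping arrays (adjusted p = 0.215). Cish, a related feedback inhibitor, was called at 0.97 ± 0.13 (adjusted p = 0.0279), and lost its call in each fit without 1 array, with an adjusted p of 0.169 without CD157-CD200+ replicate 1. Il6 and Cish were the called members among 10 tested in the family, all of which had a median difference of 0.20.

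Leukocyte adhesion molecules and chemokines were higher in 7 of 22 tested members, with none lower and a median of 0.63. Csf3, the granulocyte colony-stimulating factor, lay at -2.36, -2.97 and -2.46 on the CD157+CD200+ arrays and above background on no CD157-CD200+ array, a difference of at least 2.71-fold (adjusted p = 0.00364). Sele, E-selectin, which captures rolling leukocytes on activated endothelium, lay at 1.99, 2.50 and 2.03 on the CD157+CD200+ arrays and -0.75, 0.48 and -0.19 on the CD157-CD200+ arrays. Its subsets did not overlap, with a difference of 2.33 ± 0.20 (adjusted p = 0.00413). Ackr1, a chemokine-binding receptor typical of venules, lay at 2.61, 2.14 and 1.56 on the CD157+CD200+ arrays and 0.09, -0.27 and -0.63 on the CD157-CD200+ arrays. It differed by 2.37 ± 0.14 (adjusted p = 0.00162) and lay at 2.73, 2.79 and 2.03 on the CD157-CD200- arrays, so the CD157-CD200+ subset was the lowest of the 3.

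The chemokines Cxcl1 and Cxcl2, which attract neutrophils, and Cxcl10, which attracts T cells, were also higher. Cxcl1 lay at 5.44, 5.70 and 5.83 on the CD157+CD200+ arrays and 3.87, 4.10 and 4.38 on the CD157-CD200+ arrays and differed by 1.54 ± 0.17 (adjusted p = 0.00861). Cxcl10 differed by 1.13 ± 0.19 (adjusted p = 0.0336), and its CD157-CD200- levels, 3.86, 4.30 and 4.51, overlapped those of CD157+CD200+ cells. Cxcl2 differed by 1.13 ± 0.16 (adjusted p = 0.0198), but its arrays overlapped across pairs. Glycam1, a selectin ligand, was not well above background on any CD157-CD200+ array and was not called (adjusted p = 0.059). Its CD157+CD200+ arrays ranged from -3.69 to 1.57. Without the block 5 of the 7 calls held, with adjusted p of 0.075 for Cxcl10 and 0.601 for Cxcl2, and between 3 and 5 held with 1 array left out.

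The promoters of Il6 and the called chemokines are shown because these genes were called higher together and are textbook targets of NF-kB, the transcription factor of inflammatory activation. The windows hold 250 bases before and 50 bases after the start, from RefSeq on the GRCm38.p6 build, at chr5:30012864-30013163 on the plus strand for Il6, chr5:90890995-90891294 on the plus strand for Cxcl1 and chr5:92348840-92349139 on the minus strand for Cxcl10. They are written 5′ to 3′ on the strand of the gene, with matches to the NF-kB consensus on either strand in capitals.
Il6: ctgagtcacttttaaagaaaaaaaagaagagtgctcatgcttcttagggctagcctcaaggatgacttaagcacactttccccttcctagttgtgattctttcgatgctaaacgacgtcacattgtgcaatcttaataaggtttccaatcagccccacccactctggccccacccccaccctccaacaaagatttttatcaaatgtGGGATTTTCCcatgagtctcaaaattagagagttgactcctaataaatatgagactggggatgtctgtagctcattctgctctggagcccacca
Cxcl1: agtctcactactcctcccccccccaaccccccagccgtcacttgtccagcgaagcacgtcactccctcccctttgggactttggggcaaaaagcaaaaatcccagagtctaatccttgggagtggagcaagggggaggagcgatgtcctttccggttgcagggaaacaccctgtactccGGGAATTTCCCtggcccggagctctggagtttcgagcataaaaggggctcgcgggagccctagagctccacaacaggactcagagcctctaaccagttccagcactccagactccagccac
Cxcl10: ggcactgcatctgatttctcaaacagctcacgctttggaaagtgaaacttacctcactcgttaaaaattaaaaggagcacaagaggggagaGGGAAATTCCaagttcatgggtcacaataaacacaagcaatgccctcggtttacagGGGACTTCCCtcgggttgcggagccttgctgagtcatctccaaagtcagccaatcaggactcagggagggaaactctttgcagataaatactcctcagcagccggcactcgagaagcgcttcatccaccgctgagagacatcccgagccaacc
The Il6 window held 1 match and those of Cxcl1, Cxcl2 and Cxcl10 held 2 each, the pair in Cxcl1 overlapping on opposite strands. The motif was chosen after the values were seen. It occurred in 4.51% of 32851 promoter windows of 27025 genes and in 5.15% of the 14395 windows of genes tested here. Among windows of genes called higher it occurred in 7.0% (29 of 414), and among those of genes called lower in 5.56% (10 of 180). The table held windows for 299 of the 406 higher genes and 137 of the 189 lower ones, and some genes have several. A match describes the letters of the window and nothing further.

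MHC class II presentation genes were higher in 6 of 10 tested members, with none lower and a median of 1.11, the highest of the 30 lists. These molecules display peptides from the endosome to helper T cells, and H2-DM loads the peptides. H2-DMb1, a chain of that loading factor, lay at -0.34, 0.06 and -0.03 on the CD157+CD200+ arrays and -2.79, -2.24 and -2.39 on the CD157-CD200+ arrays. It differed by 2.37 ± 0.21 without overlap (adjusted p = 0.00446), and its partner chain H2-DMa by 1.51 ± 0.18 (adjusted p = 0.0121). Cd74, the invariant chain, lay at 2.55, 3.09 and 0.88 on the CD157+CD200+ arrays and 1.02, 1.16 and -0.68 on the CD157-CD200+ arrays. Replicate 3 was low in both subsets, so the groups overlapped although each pair differed by a similar amount, 1.67 ± 0.16 in the fit (adjusted p = 0.00623).

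The antigen-presenting chains H2-Aa, H2-Ab1 and H2-Eb1 differed by 1.43 ± 0.24 (adjusted p = 0.032), 1.24 ± 0.15 (adjusted p = 0.0124) and 0.98 ± 0.12 (adjusted p = 0.0125). Their low replicate 3 repeated the pattern of Cd74, with H2-Aa at 0.94, 1.24 and 0.40 on the CD157+CD200+ arrays and -0.23, -0.19 and -1.31 on the CD157-CD200+ arrays. Ciita, the master coactivator of class II genes, was not called (0.08 ± 0.13, adjusted p = 0.799), and H2-Oa, which restrains peptide loading, went the other way without reaching the threshold (-1.41 ± 0.28, adjusted p = 0.0552). The calls rested on the pairing: without the block only H2-DMb1 remained of the 6, and Cd74 had an adjusted p of 0.494. Leaving out 1 array left between 1 and 4 of them. None of 11 Kupffer cell and macrophage markers tested was called, where 3.09% of all features were. The summed signal of the 11 markers was 28.1 to 31.5 times the array's 75th percentile in CD157+CD200+ cells and 27.3 to 37.5 times in CD157-CD200+ cells. Cd79a, a B-cell marker, differed by -0.55 ± 0.29 (adjusted p = 0.381). The part of immune cells in the class II differences was not tested.

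Class II promoters carry a conserved module whose Y box reads CCAAT, so the windows of H2-Aa (chr17:34287774-34288073, minus strand) and H2-DMb1 (chr17:34152941-34153240, plus strand) are shown from the same RefSeq table, with CCAAT, or its complement ATTGG, in capitals. This motif too was chosen after the values were seen.
H2-Aa: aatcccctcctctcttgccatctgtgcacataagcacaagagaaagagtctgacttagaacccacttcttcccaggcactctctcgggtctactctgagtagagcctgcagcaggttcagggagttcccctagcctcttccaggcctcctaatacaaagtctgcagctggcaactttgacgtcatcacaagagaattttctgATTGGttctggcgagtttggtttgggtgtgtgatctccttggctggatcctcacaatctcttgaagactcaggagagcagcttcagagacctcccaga
H2-DMb1: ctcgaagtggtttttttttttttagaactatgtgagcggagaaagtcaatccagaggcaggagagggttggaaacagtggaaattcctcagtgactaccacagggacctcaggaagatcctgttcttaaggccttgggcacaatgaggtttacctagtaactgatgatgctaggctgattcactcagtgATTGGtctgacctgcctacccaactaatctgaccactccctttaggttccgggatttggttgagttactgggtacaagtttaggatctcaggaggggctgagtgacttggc
Each of these windows held 1 match and that of H2-Eb1 held 2. Of the 2 windows of H2-DMa, 1 held a match and 1 held none. CCAAT is short and occurred in 37.4% of all promoter windows and 37.2% of those of genes tested, in 34.1% of those of genes called higher and in 31.1% of those of genes called lower.

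Sinusoidal genes were lower with CD157: 10 of 20 tested members were called lower, none higher, and the median was -0.69. Oit3, a secreted zona pellucida-domain protein, lay at 0.00, -0.35 and 0.00 on the CD157+CD200+ arrays and 1.99, 1.81 and 2.16 on the CD157-CD200+ arrays. The difference was -2.10 ± 0.11 without overlap (adjusted p = 0.00134), and on the CD157-CD200- arrays Oit3 lay at 5.64, 5.41 and 5.46. Clec4g, the sinusoidal lectin LSECtin, lay at 5.17, 4.94 and 4.79 on the CD157+CD200+ arrays and 6.28, 6.20 and 5.95 on the CD157-CD200+ arrays. It differed by -1.18 ± 0.09 (adjusted p = 0.00342) and lay at 9.27, 9.09 and 8.88 on the CD157-CD200- arrays. Fcgr2b, the inhibitory Fc receptor that clears immune complexes, differed by -1.69 ± 0.14 (adjusted p = 0.00364), and Plxnc1, a semaphorin receptor, by -1.68 ± 0.16 (adjusted p = 0.00587).

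The transcription factors Maf, Tfec and Gata4 were lower as well, at -1.11, adjusted p = 0.00623, -1.15, adjusted p = 0.00647 and -0.75, adjusted p = 0.0218. F8, the coagulation factor made by sinusoidal cells, differed by -0.85 ± 0.10 (adjusted p = 0.012). Mrc1, the mannose receptor, and Ehd3, an endocytic ATPase, differed by -0.77 ± 0.14 (adjusted p = 0.0458) and -0.63 ± 0.10 (adjusted p = 0.0255). Not all sinusoidal genes took part. The hyaluronan receptors Stab2 and Lyve1 had differences of -0.23 ± 0.13 (adjusted p = 0.397) and 0.49 ± 0.27 (adjusted p = 0.398), although on the CD157-CD200- arrays they lay at 6.89, 6.74 and 6.45 and 4.63, 4.98 and 4.36. Stab1, their scavenger relative, was at -0.30 ± 0.11 (adjusted p = 0.237) and Dnase1l3, a secreted nuclease, at -0.29 ± 0.20 (adjusted p = 0.505), the latter with a sign that changed under another background correction.

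The summed signal of the 20 sinusoidal genes was 150 to 170 times the array's 75th percentile in CD157+CD200+ cells, 255 to 282 times in CD157-CD200+ cells and 1349 to 1715 times in CD157-CD200- cells. In bulk samples such as these, fewer cells of a kind and less RNA per cell cannot be told apart. Between 5 and 6 of the 10 calls held with 1 array left out. Oit3, Clec4g and Fcgr2b were the 3 that held without the block, where Plxnc1 had an adjusted p of 0.0742.

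**Figure D4:**
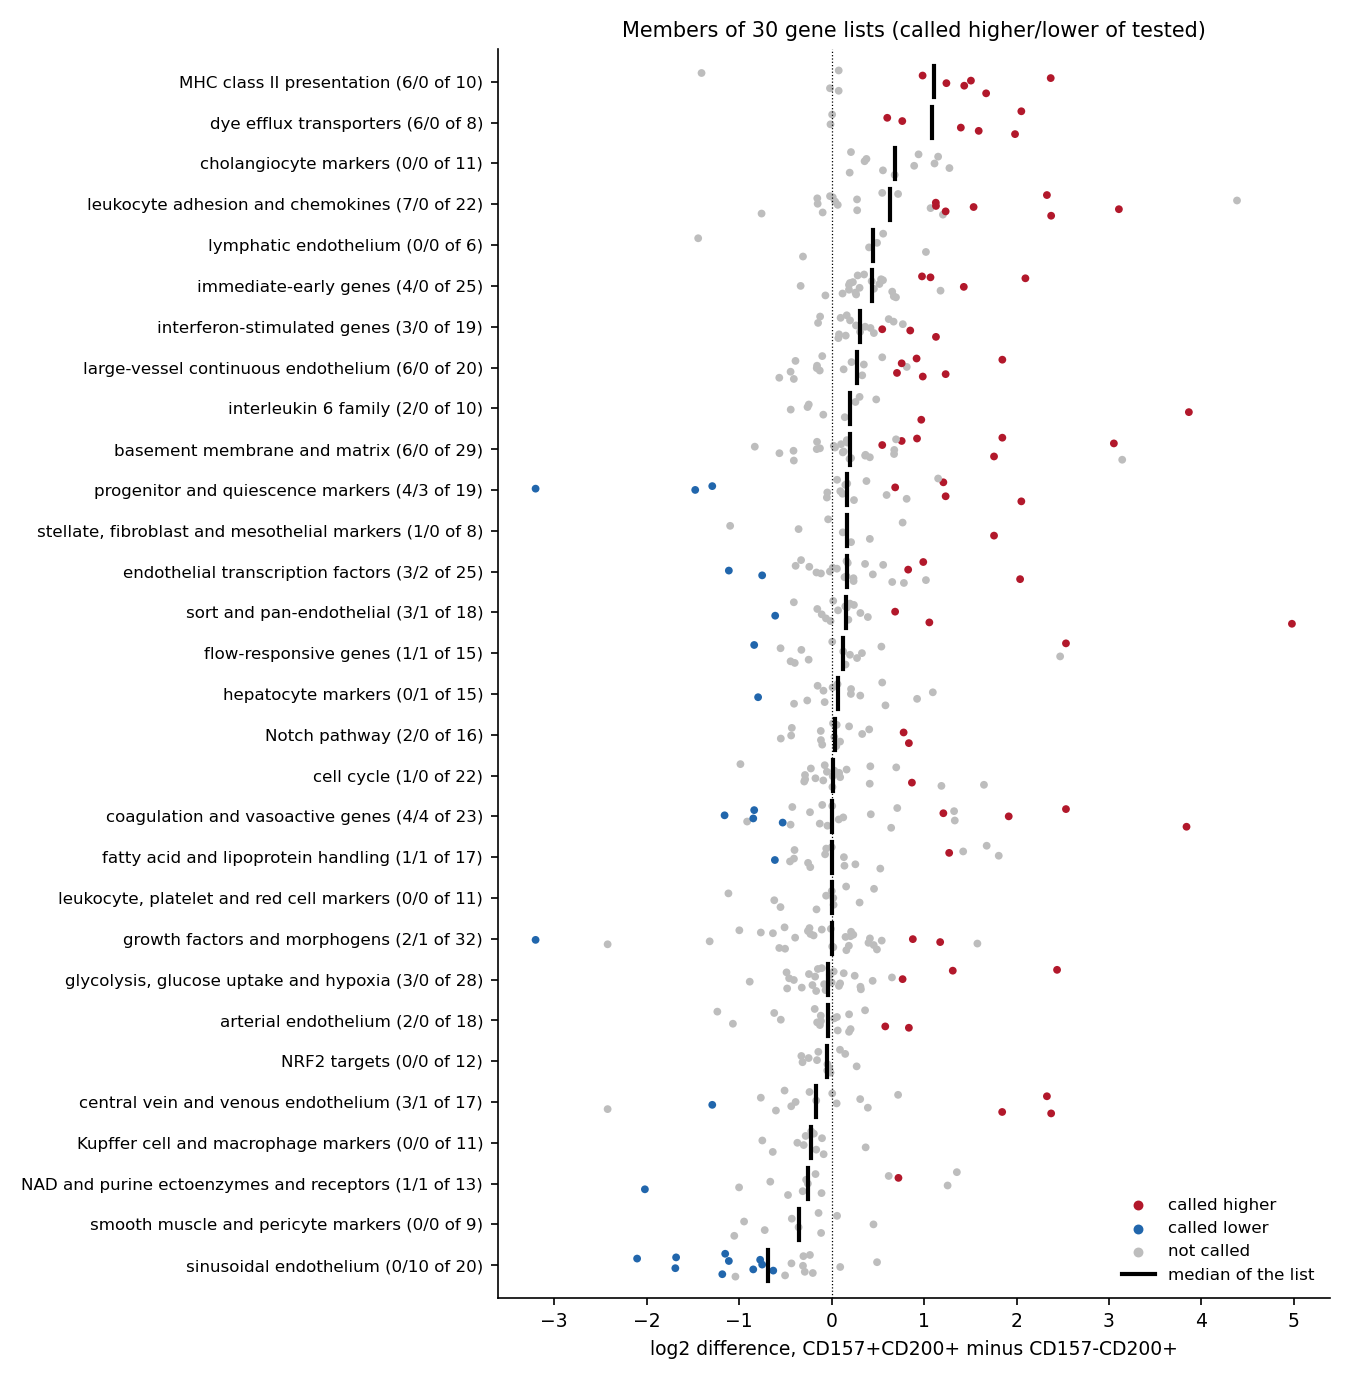
The x axis is the log2 difference, CD157+CD200+ minus CD157-CD200+; each point is a tested member of 1 of 30 gene lists, coloured by its call, and the black bar is the list's median. Axis labels give the members called higher and lower of those tested, against 2.03% and 1.06% of all features. Class II presentation (median 1.11) and efflux transporters (1.08) lie at the top and sinusoidal genes (-0.69) at the bottom.

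Large-vessel genes differed less evenly. Of 20 genes of continuous endothelium, 6 were higher and none lower, with a median of 0.27. Sparcl1, a matrix-associated glycoprotein, lay at 5.62, 5.70 and 5.72 on the CD157+CD200+ arrays and 3.50, 3.53 and 4.47 on the CD157-CD200+ arrays. CD157-CD200+ replicate 3 was higher than its fellow arrays, and the difference was 1.85 ± 0.28 (adjusted p = 0.0255). Cd34, a sialomucin of continuous endothelium and blood progenitors, lay at 5.55, 5.21 and 5.23 on the CD157+CD200+ arrays and 4.22, 3.92 and 4.15 on the CD157-CD200+ arrays and differed by 1.23 ± 0.12 (adjusted p = 0.00623). Cav1, the coat protein of caveolae, Tm4sf1, a tetraspanin-like protein, Mgp, a calcification inhibitor, and Clu, a secreted chaperone, were called at 0.99, adjusted p = 0.00841; 0.92, adjusted p = 0.00976; 0.76, adjusted p = 0.0494; and 0.71, adjusted p = 0.0318. Sparcl1 and Cd34 held without the block, and Cav1, whose replicate 3 was low in both subsets, had an adjusted p of 0.512. Between 0 and 3 of the 6 calls held with 1 array left out. Vwf, the endothelial clotting adhesive, was at 7.95, 7.84 and 8.04 on the CD157+CD200+ arrays and 8.01, 8.02 and 8.10 on the CD157-CD200+ arrays, with no difference called (-0.10 ± 0.22, adjusted p = 0.847), and lay near 0.08 on average on the CD157-CD200- arrays.

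Of 18 arterial genes tested, 2 were called, both higher: the Notch ligand Dll4 (0.84, adjusted p = 0.0204) and the ephrin ligand Efnb2 (0.58, adjusted p = 0.0304). The share of all features called higher was 2.03%. The means on the CD157+CD200+, CD157-CD200+ and CD157-CD200- arrays were 2.12, 1.28 and 2.07 for Dll4 and 4.35, 3.77 and 3.90 for Efnb2. The median difference of the 18 was -0.04. The connexin Gja4 and the semaphorin Sema3g had larger differences in the other direction, -1.07 ± 0.21 (adjusted p = 0.0538) and -1.24 ± 0.32 (adjusted p = 0.109), and were not called. Gja5, the arterial connexin, and Hey1, a Notch target, were not called, at -0.16 ± 0.12 (adjusted p = 0.547) and -0.12 ± 0.13 (adjusted p = 0.684), though both stood well above the CD157-CD200- means of -0.16 and 0.30 in either subset. Dll4 and Efnb2 lost their calls without the block (adjusted p = 0.0558 and 0.279) and whichever array was left out. Of 16 Notch pathway genes, Dll4 and the glycosyltransferase Mfng (0.78, adjusted p = 0.0152) were called, and neither held without the block (adjusted p = 0.183 for Mfng) or with any 1 array left out.

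Among 17 venous genes 3 were higher and 1 lower (all features: 2.03% and 1.06%), with a median of -0.17. Beside Ackr1 and Sele the third was Aplnr, the apelin receptor, at 3.11, 3.09 and 2.96 on the CD157+CD200+ arrays and 1.51, 0.56 and 1.55 on the CD157-CD200+ arrays. The arrays did not overlap and the difference was 1.85 ± 0.34 (adjusted p = 0.0461), but no fit with 1 array left out called it, with an adjusted p of 0.19 without CD157+CD200+ replicate 2. The lower gene was Kit, the stem cell factor receptor, at 1.51, 1.27 and 1.60 on the CD157+CD200+ arrays and 2.62, 2.68 and 2.95 on the CD157-CD200+ arrays and 5.28, 4.75 and 5.10 on the CD157-CD200- arrays. Its difference was -1.29 ± 0.13 (adjusted p = 0.00739), and 3 of the 6 fits without 1 array called it.

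Matrix genes were higher in 6 of 29 tested members (all features: 2.03%), with none lower and a median of 0.19. Lamb1, a laminin chain of the basement membrane, lay at 1.47, 1.45 and 1.80 on the CD157+CD200+ arrays and -1.36, -2.21 and -0.86 on the CD157-CD200+ arrays. It differed by 3.05 ± 0.25 without overlap (adjusted p = 0.00381). Col3a1, a fibrillar collagen, differed by 1.76 ± 0.18 (adjusted p = 0.00734). Sparc, which binds collagen, differed by 0.92 ± 0.09 (adjusted p = 0.00727) on its brightest probe, and 1 of its 3 probes had a difference of -0.04. Its mean was 6.14 on the CD157-CD200- arrays, above the 5.63 of CD157+CD200+ and the 4.71 of CD157-CD200+ arrays. Lama4, an endothelial laminin chain, was called at 0.55, adjusted p = 0.0492, beside Sparcl1 and Mgp. Without the block Lamb1 and Sparcl1 stayed called, and between 2 and 4 of the 6 with 1 array left out.

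Vasoactive and coagulation genes were split, with 4 higher and 4 lower of 23 (all features: 2.03% and 1.06%) and a median of 0.01. Beside Bdkrb2, the higher ones were Ptgs2, the inducible cyclooxygenase; Plat, tissue plasminogen activator; and Procr, the protein C receptor and a marker of several stem cell populations. Ptgs2 lay at -1.07, -0.60 and -0.55 on the CD157+CD200+ arrays and -3.26, -3.63 and -2.94 on the CD157-CD200+ arrays and differed by 2.53 ± 0.29 (adjusted p = 0.00976). Plat differed by 1.92 ± 0.24 (adjusted p = 0.0139) and Procr by 1.21 ± 0.12 (adjusted p = 0.00623). The lower ones included the constitutive cyclooxygenase Ptgs1 (-0.84, adjusted p = 0.0318), so the 2 cyclooxygenase genes were called in opposite directions. Plau, urokinase, was lower at -1.16 ± 0.11 (adjusted p = 0.00623), so tissue-type and urokinase-type activators also went opposite ways. F8 and the thrombin receptor F2r (-0.53, adjusted p = 0.0462) made up the rest. Without the block Bdkrb2, Ptgs2 and Plat stayed called among the higher and Plau among the lower, and Procr had an adjusted p of 0.249. With 1 array left out, 1 to 4 of the higher and 0 to 1 of the lower calls held. Among 15 flow-responsive genes, Ptgs2 and Ptgs1 were the ones called.

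In the list of growth factors 2 of 32 were higher and 1, Igf2, lower, with a median of -0.00. Over all features 2.03% were higher and 1.06% lower. Inhba, described above, was not on this list. Hbegf, a heparin-binding ligand of the EGF receptor, differed by 1.17 ± 0.12 (adjusted p = 0.00794) without overlap. Igfbp3, which binds insulin-like growth factors, differed by 0.88 ± 0.15 (adjusted p = 0.037), and its call was lost without the block (0.387). It was not well above background on the CD157-CD200- arrays. Among 25 endothelial transcription factors, Foxf1 and Sox7 were among those higher, and Maf and Gata4 were the 2 lower. Foxf1, a forkhead factor of lung and liver vessels, lay at 1.67, 1.62 and 1.86 on the CD157+CD200+ arrays and -0.19, -0.95 and 0.17 on the CD157-CD200+ arrays and differed by 2.04 ± 0.20 (adjusted p = 0.00623). It kept its call without the block and whichever array was left out. Sox7, at 0.99, adjusted p = 0.00893, lost its call without the block, where the adjusted p was 0.0702.

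Of 19 progenitor and quiescence markers, 4 were higher (Abcg2, Cd34, Procr and Itga6) and 3 lower (Igf2, H19 and Kit), with a median of 0.17. Across all features 2.03% were higher and 1.06% lower. Itga6, an integrin of many stem cells, was at 0.69, adjusted p = 0.0231. H19, an imprinted noncoding RNA that neighbours Igf2, lay at -2.24, -2.03 and -1.42 on the CD157+CD200+ arrays and -0.94, -0.51 and 0.18 on the CD157-CD200+ arrays. It differed by -1.47 ± 0.17 (adjusted p = 0.00976), in the direction of Igf2, and its call was lost without the block (0.0771). Ly6a, which encodes Sca-1, was high in both subsets and not called (0.15 ± 0.13, adjusted p = 0.601). Without the block 2 of the 4 higher and 2 of the 3 lower calls held.

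Immediate-early genes were higher in 4 of 25 tested members (all features: 2.03%) and none was lower, with a median of 0.43. Such genes rise within minutes of stimulation and during cell isolation. Myc lay at 2.24, 2.74 and 2.03 on the CD157+CD200+ arrays and 0.04, 0.73 and -0.05 on the CD157-CD200+ arrays and differed by 2.10 ± 0.13 without overlap (adjusted p = 0.00187). Fosl2, an AP-1 subunit, differed by 1.43 ± 0.15 (adjusted p = 0.00837), and the nuclear receptors Nr4a1 and Nr4a2 by 1.07 ± 0.15 (adjusted p = 0.0204) and 0.98 ± 0.12 (adjusted p = 0.0121). The classical members Fos and Jun were not called, at 0.19 ± 0.11 (adjusted p = 0.432) and 0.23 ± 0.12 (adjusted p = 0.382). Myc and Fosl2 held without the block, and Myc alone held whichever array was left out. The summed signal of the 25 genes was 2336 to 3070 times the array's 75th percentile in CD157+CD200+ cells and 1804 to 2377 times in CD157-CD200+ cells. The part of this shift in the differences of Il6, Cxcl1, Cxcl2 and Ptgs2, which are themselves inducible, was not tested. Interferon-stimulated genes were called in 3 of 19 cases (all features: 3.09%), all higher: Cxcl10, Ifit1 (0.85, adjusted p = 0.0476) and Ifit2 (0.55, adjusted p = 0.042). None of the 3 held without the block or with any 1 array left out. Ifit2 was highest on the CD157-CD200- arrays, at a mean of 1.79, where Ifit1 had a mean of 0.15.

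Genes of other liver cells gave few calls, as did all features, of which 3.09% were called. Of 11 cholangiocyte markers tested none was called, yet all 11 had a positive difference, with a median of 0.68, and their summed signal was 8.28 to 11.1 times the array's 75th percentile in CD157+CD200+ cells against 5.32 to 7.37 in CD157-CD200+ cells. Krt19, Sox9, Spp1 and Epcam were at 0.89, 1.15, 0.94 and 0.56. The bile duct markers Cftr, Cdh1, Onecut1 and Pkhd1 were not well above background on all arrays of any subset. Of 15 hepatocyte markers, Fgb was lower (-0.79, adjusted p = 0.0372; 0.315 without the block, and not called with any 1 array left out) and no other was called, and the summed signal was 17.2 to 22.3 and 17.9 to 19.3 times. Of 8 stellate, fibroblast and mesothelial markers, Col3a1 was called, while Dcn and Col1a1 were at 0.12 ± 0.19 (adjusted p = 0.77) and 0.21 ± 0.13 (adjusted p = 0.453); the list summed to 6.38 to 9.57 and 5.34 to 7.94 times. No member was called among 9 smooth muscle, 6 lymphatic and 11 leukocyte, platelet and red cell markers, the first of which summed to 24.5 to 30.6 and 23.9 to 41.0 times. The part of other cells in the differences above was not tested.

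The EC-SP and EC-MP arrays come from a separate sort and share no array with the comparison by CD157, so the genes called for CD157 could be looked up there. Of the 406 genes higher with CD157, 392 were tested in the side-population sort and 320 of these (81.6%) were higher in EC-SP than in EC-MP, against 13.9% of all 14219 genes tested there. Atp8a2 and Fam13c were the 2 genes higher with CD157 and lower in EC-SP. Of the 189 genes lower with CD157, 178 were tested and 135 (75.8%) were lower in EC-SP, against 1570 of the 14219 genes. The shared genes made up 16.2% of all genes higher in EC-SP and 8.60% of those lower. Over all features of that sort, 11.9% were called higher and 9.90% lower. The overlap was described and not tested.

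Values of single genes are set side by side here. The EC-SP minus EC-MP difference was 4.34 ± 0.22 for Bst1, 6.57 ± 0.37 for Il6, 3.62 ± 0.17 for Abcg2, 5.86 ± 0.44 for Penk and 6.81 ± 0.19 for Itih5. For the sinusoidal genes it was larger than for CD157, at -6.34 ± 0.25 for Oit3 and -5.70 ± 0.21 for Clec4g. Stab2 and Lyve1, which were not called for CD157, differed by -5.38 ± 0.28 and -5.28 ± 0.15 in the side-population sort.

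A group of 11 genes was lower with CD157 but higher in EC-SP, 6.18% of the 178 tested, against 13.9% of all genes higher in EC-SP. The comparison with that background turned with the setting: without the block in either fit it was 9 of 44 genes (20.5%) against 11.2%, and without the filter on dim probes 2 of 56 (3.57%) against 3.95%. The 11 held 5 of the 12 genes with the largest negative difference, of which 7 were tested in that sort: Alpl, Tmem178, Igf2, Aif1l and Serpinf1. Alpl was -4.82 by CD157 and 5.45 ± 0.27 by side population, Aif1l was -2.89 and 4.22 ± 0.39, and Igf2 was -3.20 and 1.68 ± 0.36. S100a4, a calcium-binding protein, and Stmn2, a neuronal microtubule regulator, were also in the group, at -1.85 and -1.59 by CD157 and 3.68 ± 0.28 and 3.19 ± 0.65 by side population. With 1 array left out the CD157 call of Aif1l held in 2 of 6 fits, that of S100a4 in 1 of 6 and that of Stmn2 in none. In Alpl, Igf2, Aif1l, S100a4 and Stmn2 the CD157-CD200+ arrays were the highest of the 3 subsets. On the CD157-CD200- arrays S100a4 had a mean of -1.53, and none of the 3 measured Igf2, Aif1l or Stmn2 above background.

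**Figure D5:**
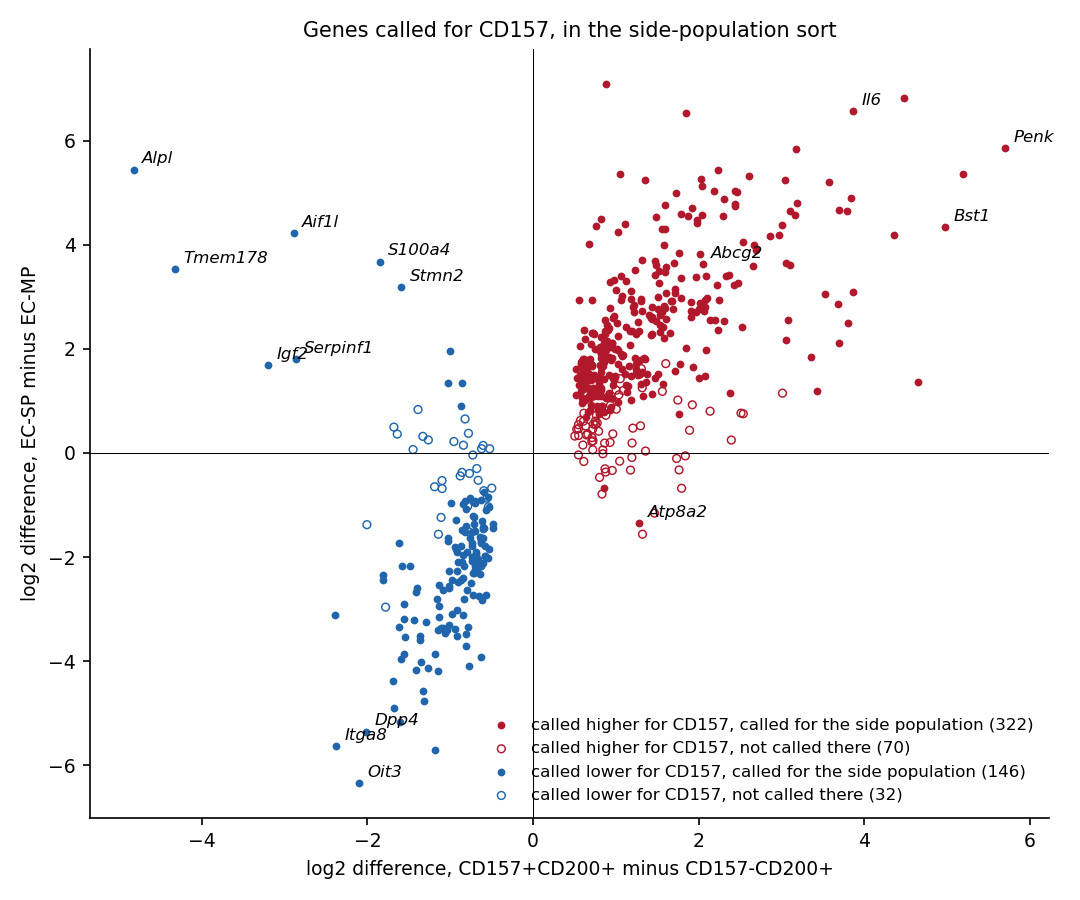
Each point is a gene called for CD157; the x axis is the log2 difference CD157+CD200+ minus CD157-CD200+ and the y axis the log2 difference EC-SP minus EC-MP from separate arrays. Filled points were called in the side-population sort; most lie at the upper right (320) and lower left (135), and 11 genes, Alpl among them, lie at the upper left.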

How the data were processed

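Values came from the scanner files of 9 arrays (3 CD157+CD200+, 3 CD157-CD200+, 3 CD157-CD200-) and, for 1 lookup, 6 arrays of EC-SP and EC-MP. These files hold Cy3 intensity that the image software background-subtracted, per the file headers (Agilent Feature Extraction 11.5.1.1 for the subsets, 10.10.1.1 for EC-SP and EC-MP). The authors' series table is this intensity multiplied by a constant for each array (7.71 to 10.1 on the 6 CD200-positive arrays, column medians 252 to 293), on a linear scale without centring. The basis of that constant is unknown here.

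Control spots were left out and between 133 and 213 of 59305 spots per array, marked as outliers, were set to missing. Each value is log2 of the processed signal minus log2 of the array's 75th percentile. Of 55681 probes, 28059 carried the symbol of 21173 genes through RefSeq accessions and the files' annotation; the others, 16194 of them for genomic regions, kept their names. Tested probes had all 3 arrays of some subset well above background, and the brightest probe stood for a gene. limma 3.58.1 in R 4.3.3 (lmFit, eBayes) was fitted to the 9 arrays with replicate number as a block; files were read in Python 3.11.15 (pandas 2.3.3, numpy 2.4.6). Features were called below 0.05 after Benjamini-Hochberg adjustment across the whole table, and errors are standard errors with n = 3 arrays per subset. The number of arrays limits the precision. The procedure was tested on simulated data.

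Once group means were removed, same-numbered arrays correlated at r between 0.30 and 0.63 (3 pairs) and differently numbered ones at r between -0.49 and 0.03 (6 pairs); the numbers come from the titles, and each is 1 slide. A fold given as "at least" compares the brighter subset with the larger, per array, of the gene's own signal and the dimmest signal called above background. It holds for the main setting only, and some normexp differences were smaller. Any adjusted p beside such a fold is that of the fitted difference.

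The comparison and the gene lists were chosen with earlier results of these data known. Named are Bst1, Cd200, Il6, Abcg2, Pecam1, Cdh5 and Ptprc, the 12 called genes with the largest difference each way that moved alike in 3 pairs and were well above background throughout the higher subset (unnamed and predicted transcripts left out), and up to 4 called members per list and direction, or the one with the lowest p. Others, such as Stab2, Vwf, Cxcl1, H2-Aa, Fos, Krt19 and S100a4, were added after their values were seen. Some of the genes so chosen are not reported here. Alternatives were no block, only the 6 arrays, quantile and median centring, normexp with offset 50 (on median spot signals, as mean signals were not used), other filters on dim probes, the mean over a gene's probes, the deposited table, an intensity trend, and each array left out.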

Additional observations from a re-analysis of the deposited data

How the results depend on the processing

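Slide and scan coincide with the replicate number, so a block on them is the same fit. The replicate block carried most calls: without it 250 features were called (191 higher, 59 lower) in place of 732 (481 and 251). No filter on dim probes gave 248 (180 and 68), normexp background correction 1667 (1020 and 647), and an intensity trend with a robust prior 1581 (930 and 651). With 1 array left out the counts were 145 to 300 (102 to 207 higher, 39 to 93 lower). Quantile or median centring, only the 6 arrays, only probes above background on all 9, the mean over probes and the authors' deposited table gave between 643 and 831 calls. Of 101 called genes chosen for naming, 55 kept the call without the block and 31 in all 6 fits without 1 array, and none changed direction. Without the filter on dim probes 100 of them were tested, of which 55 kept the call and 45 lost it. The share of calls that were higher was 65.7%, and 63.4%, 71.1% and 60.1% with quantile centring, median centring and the deposited table.

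In the side-population sort, without the block in either fit 146 genes higher with CD157 were higher in EC-SP and 31 lower ones were lower; with no filter 122 and 35, and the genes lower with CD157 but higher in EC-SP fell from 11 to 2.

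Differences near 0 that were not called changed sign: Cdh5 was 0.0164 with median centring and 0.0174 with normexp, Abcc1 0.0165 with median centring, Dnase1l3 0.00147 with normexp, and Ptprc -0.0324 and Abcc5 -0.0278 with the deposited table. With 1 array left out the values ran from -0.0922 to 0.0516 for Cdh5, -0.0632 to 0.0524 for Ptprc, -0.229 to 0.0877 for Vwf, -0.00710 to 0.177 for Ciita, -0.00497 to 0.238 for Dcn, -0.0759 to 0.0534 for Abcc1 and -0.0550 to 0.0603 for Abcc5. The cause of these changes was not tested.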

Other observations

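Cell cycle and stress genes gave few calls between the CD200-positive subsets, as did all features, of which 3.09% were called. Of 22 cell cycle genes tested, Ccnd1, which encodes the G1 cyclin D1, was the one called, at 2.78, 2.88 and 2.78 on the CD157+CD200+ arrays and 2.05, 1.80 and 1.99 on the CD157-CD200+ arrays. Its difference was 0.87 ± 0.11 (adjusted p = 0.0121), the list's median was 0.02, and on the CD157-CD200- arrays Ccnd1 was higher than in either subset, at 4.75, 4.66 and 4.68. Its call held without the block and in none of the 6 fits with 1 array left out. None of 12 targets of the oxidative stress factor NRF2 was called, and their median was -0.05. The lowest p among them belonged to Gstm2, a glutathione transferase (-0.31 ± 0.10, adjusted p = 0.176).

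Glucose carriers stood apart within their list. Of 28 genes of glycolysis, glucose uptake and hypoxia, 3 were higher and none lower, with a median of -0.04. Slc2a3, a high-affinity glucose transporter best known from neurons, lay at 1.21, 1.14 and 0.88 on the CD157+CD200+ arrays and -1.18, -1.50 and -1.42 on the CD157-CD200+ arrays. It differed by 2.44 ± 0.21 without overlap (adjusted p = 0.00396), with and without the block and whichever array was left out. Slc2a1, the glucose transporter of barrier endothelium, differed by 1.31 ± 0.16 (adjusted p = 0.0119; 0.115 without the block). The third was Ndrg1, a hypoxia-inducible gene (0.77, adjusted p = 0.0194; 0.0723 without the block).

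Of 13 genes listed for NAD and purine turnover outside the cell, the ATP receptor P2rx7 was higher (0.72, adjusted p = 0.0166). It had an adjusted p of 0.177 without the block and was not called with any 1 array left out. P2rx7 was highest on the CD157-CD200- arrays, at a mean of 1.27, against 0.37 on the CD157+CD200+ and -0.35 on the CD157-CD200+ arrays. The peptidase Dpp4 was lower (-2.02, adjusted p = 0.00264). Dpp4 lay at 0.42, 0.66 and 1.09 on the CD157+CD200+ arrays and 2.66, 2.69 and 2.88 on the CD157-CD200+ arrays and at 5.24, 5.07 and 5.22 on the CD157-CD200- arrays, and kept its call without the block and whichever array was left out. Cd38, the relative of Bst1, was not called (-0.31 ± 0.11, adjusted p = 0.203). Of 17 genes of lipid handling, the HDL receptor Scarb1 was higher (1.27, adjusted p = 0.00343) and Gpihbp1, which anchors lipoprotein lipase, lower (-0.61, adjusted p = 0.0253; 0.336 without the block). Probes for genomic regions without a named gene made up 3550 of the features tested. Of these, 24 were called higher and 20 lower, against 2.03% and 1.06% of all features.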
